A study of Saccharomyces cerevisiae with 6 samples.

Results

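The CDC genes of *Saccharomyces cerevisiae* are the genes that carry a standard symbol made of CDC and a number. The septin genes *CDC3*, *CDC10*, *CDC11* and *CDC12*, the pyruvate kinase gene *CDC19*, the translation initiation factor gene *CDC33*, and the older names *CDC46* and *CDC47* for MCM helicase subunits were left out. Of 36 such genes in the RefSeq annotation, 35 were represented in the table of 5657 genes analysed here, each by 1 of its 5705 probe sets. The remaining symbol, *CDC65*, had no row among those analysed.

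The arrays were made from total RNA of strain F12, an engineered industrial yeast. Cells were taken after 4 h of fermentation in a YNB medium that held ammonium sulfate (7.5 g/L) and glucose (20 g/L). The labels give 3 arrays with 40% insoluble solids (IS, w/w) and 3 arrays without them (0% IS). By the methods, the solids were glass beads. The labels do not say whether the replicates came from separate cultures.

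The question behind the design was how IS changed gene expression, and for the CDC genes it was not answered here. The deposited table compares the conditions as the authors computed it, and those columns were not used. By its column name, the other measurement in the table is a mean signal. It names no sample and was taken here as the mean over the arrays of both conditions. No difference between 40% IS and 0% IS, no error between replicates and no test are therefore given for any CDC gene below.

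Many CDC symbols come from screens for yeast mutants that stop at a particular stage of the division cycle when a gene product fails. The cycle is driven by the cyclin-dependent kinase Cdc28, and its transitions are made irreversible by 2 ubiquitin ligases, SCF and the anaphase-promoting complex (APC/C). Because a cell can also arrest when translation or splicing fails, the same screens returned genes whose products act outside the cycle machinery. The symbol alone does not define a pathway.

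The values below are the authors' means of log2 signals after RMA. This method corrects the background, normalizes the arrays and combines the probes of each probe set. The authors' mean ran from 7.13 to 11.92 over the 35 CDC genes, with a median of 8.75 (quartiles 8.30 and 9.47). Over all 5705 probe sets the authors' mean had a median of 8.79, with quartiles of 8.03 and 9.74 and a range from 6.20 to 14.14. A total of 4 CDC genes lay below the lower quartile of the table, which by definition holds a share of 25% of all probe sets. No test was made of these counts or medians. Since probes differ in how strongly they bind their targets, these signals do not rank the genes by their mRNA.

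**Figure D1:**
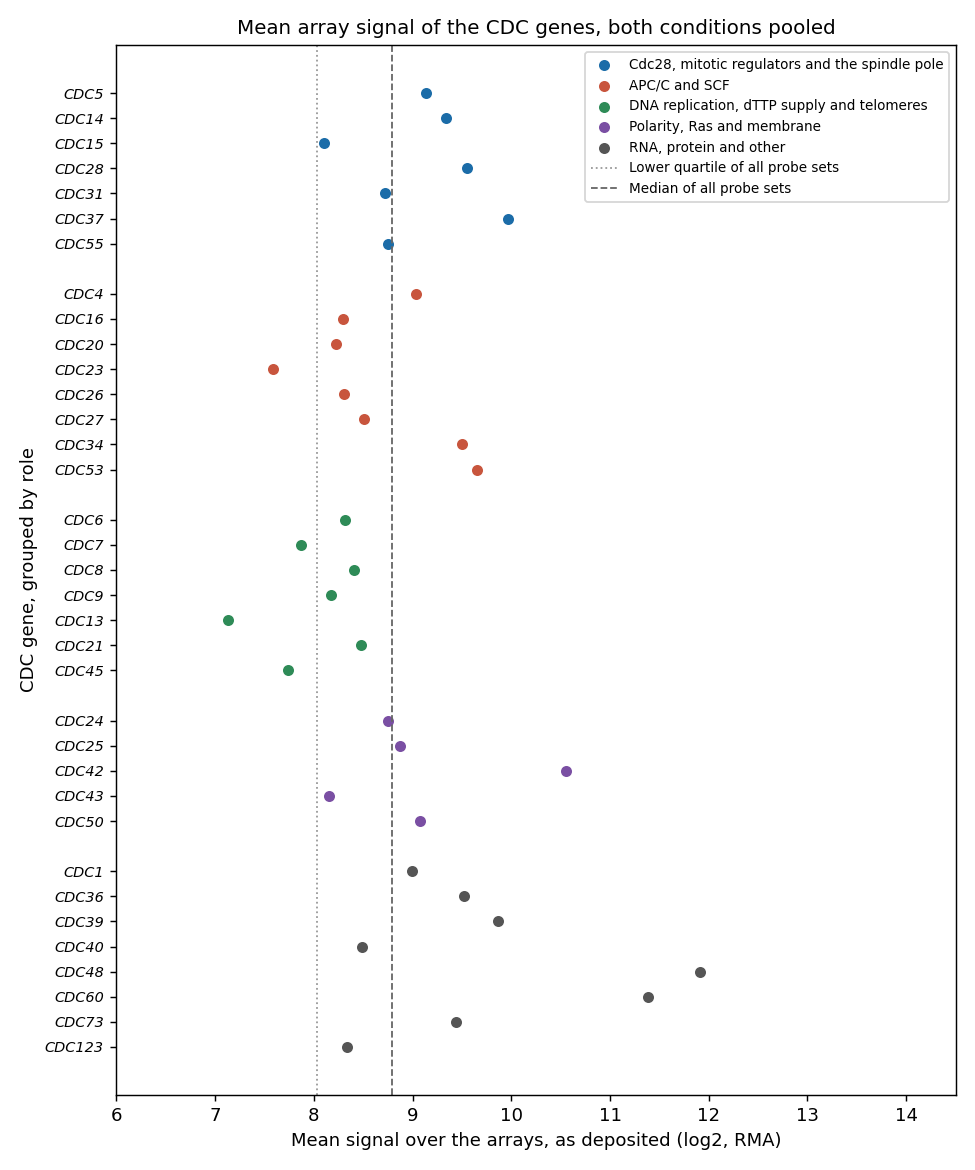
Mean signal of each of the 35 CDC genes (horizontal axis, log2 after RMA, the authors' mean over arrays of both conditions), with genes grouped by role down the page. Each point is 1 probe set and has no error bar, since the mean is pooled. The dashed and dotted lines mark the median (8.79) and the lower quartile (8.03) of all probe sets, and 4 points, *CDC7*, *CDC13*, *CDC23* and *CDC45*, lie left of the dotted line.

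In the group of Cdc28, mitotic regulators and the spindle pole, the probe set of *CDC28* (YBR160W) had an authors' mean of 9.55. *CDC37* (YDR168W), which encodes a co-chaperone that delivers kinases to Hsp90, had an authors' mean of 9.96. The authors' mean was 9.13 for *CDC5* (YMR001C), the polo kinase of mitosis. None of these values lay below the lower quartile of the table.

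Mitotic exit in yeast is triggered when a kinase cascade releases the phosphatase Cdc14, which reverses phosphorylations made by Cdc28. *CDC14* (YFR028C) had an authors' mean of 9.34, and *CDC15* (YAR019C), a kinase of this cascade, one of 8.10. *CDC55* (YGL190C), a regulatory subunit of protein phosphatase 2A, was at 8.75 in the authors' mean. The centrin gene *CDC31* (YOR257W), needed to duplicate the spindle pole body, was at 8.72. The median over the 7 genes of this group was 9.13, with 0 below the lower quartile of the table.

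The APC/C marks securin and mitotic cyclins for destruction. Its subunit genes with a CDC symbol had authors' means of 8.30 (*CDC16*, YKL022C), 7.59 (*CDC23*, YHR166C), 8.30 (*CDC26*, YFR036W) and 8.50 (*CDC27*, YBL084C). *CDC20* (YGL116W), which encodes the activator that brings substrates to the APC/C, was at 8.23. Among the 8 CDC genes grouped under APC/C and SCF, *CDC23* was the one below the lower quartile of the table.

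SCF acts earlier in the cycle, where it removes the Cdc28 inhibitor Sic1. The authors' mean was 9.65 for *CDC53* (YDL132W), the cullin scaffold of SCF. *CDC34* (YDR054C), the ubiquitin-conjugating enzyme that works with it, was at 9.50. For *CDC4* (YFL009W), the F-box protein that recognises phosphorylated substrates, the authors' mean was 9.03. Together the 8 CDC genes of APC/C and SCF had a median of 8.40.

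Over all probe sets, a share of 25% lies below the lower quartile of the table by definition. The 7 genes of DNA replication and telomere protection included 3 of the 4 members below it. These were *CDC13* (YDL220C), whose product binds single-stranded telomeric DNA, with an authors' mean of 7.13, *CDC45* (YLR103C), a subunit of the replicative helicase, with 7.73, and *CDC7* (YDL017W), the kinase that fires origins, with 7.87. Origin licensing requires *CDC6* (YJL194W), which was at 8.31 in the authors' mean.

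Enzymes that supply or join DNA made up the rest of this group. The DNA ligase gene *CDC9* (YDL164C) had an authors' mean of 8.18. *CDC21* (YOR074C), thymidylate synthase, was at 8.47 and *CDC8* (YJR057W), thymidylate kinase, at 8.41. These successive enzymes provide the dTTP used in S phase. The 7 replication and telomere genes had a median of 8.18.

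Bud emergence depends on the small GTPase Cdc42, whose gene *CDC42* (YLR229C) had an authors' mean of 10.56. The gene of its exchange factor, *CDC24* (YAL041W), was at 8.75. *CDC43* (YGL155W), a subunit of the enzyme that attaches a lipid to Cdc42, was at 8.15. Of the others placed with this group, *CDC25* (YLR310C), the exchange factor of Ras that couples nutrients to cyclic AMP, was at 8.88, and *CDC50* (YCR094W), the partner of a membrane lipid flippase, at 9.08 in the authors' mean. The median of the 5 genes was 8.88 and 0 were below the lower quartile of the table.

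The last group holds 8 genes with roles in RNA and protein metabolism or elsewhere, with a median of 9.48. *CDC48* (YDL126C), the ATPase that extracts ubiquitylated proteins from complexes and membranes, had an authors' mean of 11.92. *CDC60* (YPL160W), the cytosolic leucyl-tRNA synthetase, was at 11.39. *CDC123* (YLR215C), an assembly factor of translation initiation factor eIF2, was at 8.33. The products of these genes serve protein turnover and translation.

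*CDC39* (YCR093W) and *CDC36* (YDL165W) encode subunits of the CCR4-NOT complex, which shortens poly(A) tails, and had authors' means of 9.87 and 9.53. *CDC73* (YLR418C), of the Paf1 complex that travels with RNA polymerase II, was at 9.44. The splicing factor gene *CDC40* (YDR364C) had an authors' mean of 8.49, and *CDC1* (YDR182W), which acts in the remodelling of GPI anchors, one of 8.99.

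By the order of genes in the RefSeq annotation, 2 pairs of CDC genes were direct neighbours. *CDC39* and *CDC50* follow each other on the same strand, as the W in both systematic names shows. *CDC36* and *CDC9* lie on opposite strands and point towards each other. In both pairs the members belong to different role groups. All 35 CDC probe sets had names ending in _at alone, as had 5577 of the 5705 in the table. The other 128 probe sets of the table end in _s_at or _x_at, which on these arrays marks probes that more than 1 transcript can share.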

How the data were processed

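The authors hybridized labelled cDNA to GeneChip Yeast Genome 2.0 arrays, normalized the scans with RMA in Expression Console and compared 40% IS with 0% IS by limma. The deposited table has 8 named columns and 3 unnamed ones. Its identifiers are a probe set and a systematic gene name. The values used here are the authors' deposited means of log2 signals over the arrays. That both conditions are pooled was inferred from the column name, which names no sample. The other 5 columns hold the authors' comparison (a fold change, a test statistic, a p-value, an adjusted p-value and log-odds) and were not used here. Values for each array were not analysed here. How the 5705 probe sets were chosen, and the annotation behind the names, are not given in the sources used here.

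Symbols for the systematic names came from the RefSeq annotation of R64 (GCF_000146045.2), which held 5692 of the 5705 rows. No coordinates were used beyond gene order. Every CDC gene with a row is named. Members and role groups were chosen with earlier results of these data known. Medians and quartiles were computed with Python 3.11.15, numpy 2.4.6 and pandas 2.3.3, in a procedure first tested on simulated data. The limma fit planned for values of each array was not made. The search for the MCB motif in promoters, and the printing of sequences, were not made because no sequences were used here. The number of arrays limits the precision.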

Additional observations from a re-analysis of the deposited data

How the results depend on the processing

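Reading the gene symbols only as the table writes them found 0 CDC probe sets, since the table gives systematic names. Including older names, such as those of genes now named after other functions, gave 52 probe sets in place of 35. Leaving out the 4 CDC genes below the lower quartile of the table gave a median authors' mean signal of 8.88, against 8.75 with all 35. The direction of this change was fixed in advance, since the genes left out had the lowest values of the same signal. Taking 1 value per gene left it at 8.75, because each gene had 1 probe set. The alternatives planned for a comparison of 40% IS with 0% IS (another normalization, a filter on dim probe sets, leaving out each replicate, other variance models) and for the promoter motif were not run. No paired analysis was possible because the column used names no sample and carries no replicate numbers. A low signal on these arrays cannot be told apart from background here.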
